A study of Homo sapiens with 4 samples.

Results

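Remote H3.3 intervals are the stretches of the genome that were called as H3.3 peaks more than 50 kb from every annotated transcription start site (TSS). They were chosen by position alone. Each distinct interval on chromosomes 1 to 22 and X was kept when its nearest edge lay more than 50 kb from any TSS of GENCODE release 44, whether of a protein-coding gene or of a non-coding one. Of 88806 distinct intervals without UV, 3795 were remote, and of 77173 after UV, 2650 were. H3.3 was immunoprecipitated from human fetal lung fibroblasts, which the sample labels name MRC5 and the methods MRC5_VA, a line immortalized with SV40. The cells were either left without UV or irradiated with 10 J/m2 UV-C and harvested after 3 h of recovery, and the labels give both groups as wild type (WT). The DNA of 3 replicates was pooled before sequencing, so each condition has 1 H3.3 library, differences between the conditions have no spread to be set against, and none was tested. An input library of each condition is labelled as well and was not used here.

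H3.3 is a variant of histone H3 that is placed on chromatin outside DNA replication. The HIRA complex places it at active promoters, gene bodies and enhancers, whereas ATRX and DAXX place it at telomeres, pericentromeres and other repeats. Sites far from any promoter can therefore be enhancers inside long genes and gene deserts, or repeat copies, and the peak lists themselves do not say which.

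Peaks were called by the authors and deposited as 1 list for each library, with 102949 peaks without UV and 89740 after UV. Intervals with several summits take a line per summit in these lists, and here each was counted once and given its strongest summit. The lists carry no read numbers, so the depth of the libraries is unknown. Shares and ratios are given with exact 95% binomial intervals, which cover counting error only. The 95% intervals of differences between the lists are approximate. All of them treat the intervals of a list as independent, although many lay in groups, and none covers the spread between libraries. A difference whose interval leaves out 0 is therefore not set apart from a difference between libraries. The −log10 q of a summit, and its fold enrichment over the background, were computed by the authors within a library. They are used here to rank intervals within a list, and the −log10 q also as a threshold applied to each list. As a check of the cell type, intervals within 1 kb of a TSS were found for 8 of 13 fibroblast markers without UV and 10 after UV, for 5 and 4 of 11 epithelial markers, for 1 and 0 of 10 immune markers and for 1 and 1 of 7 endothelial markers. Of all protein-coding genes, 48.1% without UV and 54.2% after UV had such an interval, so the share of epithelial markers was not far from that of any gene, and the lists do not set fibroblasts apart by these markers alone. *COL1A1*, *COL1A2*, *FN1*, *PDGFRB*, *TWIST1*, *TWIST2*, *FOXF1* and *TCF21* had one in both lists, whereas *COL3A1*, *THY1* and *TBX5* had none in either, and among the epithelial markers *CDH1*, *ELF3*, *FOXA1* and *OVOL2* had one in both.

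The sequences under the summits of a pair of leading remote intervals are shown first, because they are strong intervals without the Alu words that many other strong ones held. Other repeats, and diverged Alu copies, were not looked for. Each is from the plus strand of hg38, with 100 bases on either side of the summit. An interval between genes is called near the protein-coding gene whose TSS is nearest. The windows were searched for 9-letter words of the Alu consensus, TGTAATCCC, GGTGAAACC, AGGCTGAGG and GCAGTGAGC, and their reverse complements, which capitals would mark. Alu elements are short interspersed repeats of primates with very many copies in the human genome. These words were chosen after the sequences had been seen. The first sequence is from the strongest interval seen only after UV, in an intron of *TTLL11*, which encodes a tubulin polyglutamylase (chr9:121896592-121896792). The second is from the strongest interval with a counterpart and fewer than 2 of the words, between genes near *LMX1A*, which encodes a homeodomain transcription factor (chr1:165117479-165117679).
TTLL11 intron: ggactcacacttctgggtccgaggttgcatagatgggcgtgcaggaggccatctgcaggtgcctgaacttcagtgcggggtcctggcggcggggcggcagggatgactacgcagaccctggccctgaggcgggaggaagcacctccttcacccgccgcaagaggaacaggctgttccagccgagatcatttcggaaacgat
near LMX1A: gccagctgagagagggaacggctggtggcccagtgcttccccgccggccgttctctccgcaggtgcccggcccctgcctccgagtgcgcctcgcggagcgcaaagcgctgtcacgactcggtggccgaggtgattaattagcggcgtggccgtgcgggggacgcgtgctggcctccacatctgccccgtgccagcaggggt
Both windows held 0 of the 4 words, so they carry no capitals, and they had a GC content of 63.2% and 71.1%. The summit windows of other leading intervals did hold them, with 2 of the 4 words in that between genes near the clock gene *BMAL1*, the strongest without UV, and 3 in that between genes near *TXNL1*, whose TSS is 343 kb away and which was among the strongest seen only without UV.

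Remote intervals were fewer after UV, both in number and as a share of the list. Without UV they made up 4.27% of the distinct intervals (95% interval 4.14 to 4.41%) and after UV 3.43% (95% interval 3.31 to 3.56%), a difference of −0.840 percentage points. The ratio of the number after UV to that without UV was 0.698 (95% interval 0.664 to 0.734). For intervals within 1 kb of a TSS the ratio was 1.05, for those from 1 to 50 kb 0.814, and over all distinct intervals 0.869. Of the genome without assembly gaps, 603 Mb or 20.7% lies more than 50 kb from a TSS. It held 6.29 intervals per Mb without UV and 4.39 after UV, against 98.3 and 104 per Mb within 1 kb of a TSS and 30.1 and 24.5 per Mb between 1 and 50 kb. The remote intervals covered 2.06 Mb without UV and 1.35 Mb after UV. The ratio rose with the strength that was asked for, to 0.814 (95% interval 0.753 to 0.879) at a −log10 q of at least 5 and 0.862 (95% interval 0.762 to 0.975) at one of at least 10. Over all distinct intervals it was 1.01 and 1.15 at these thresholds. A −log10 q depends on its library, so the same threshold need not ask for the same strength in both lists. The part of this in the rise of the ratios was not tested.

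The density of intervals fell with distance from the TSS in both lists, with no step at 50 kb. It was 11.4 and 8.27 per Mb between 40 and 50 kb. Between 50 and 75 kb there were 1909 intervals without UV and 1385 after UV, a density of 8.91 and 6.46 per Mb. Between 100 and 150 kb the density was 5.84 and 3.77 per Mb, and between 200 and 300 kb, where 130 and 78 intervals remained, it was 3.52 and 2.11 per Mb. The ratio of numbers was 0.726 (95% interval 0.677 to 0.778) between 50 and 75 kb, 0.645 (95% interval 0.571 to 0.728) between 100 and 150 kb and 0.600 (95% interval 0.447 to 0.801) between 200 and 300 kb, so that the intervals of the first and last of these overlapped. The median distance of remote intervals was 74.8 kb without UV and 73.2 kb after UV. The farthest one of each list lay on chromosome 18 in the gene desert near *PIK3C3*, which encodes a phosphatidylinositol 3-kinase. It was at 473 kb without UV (chr18:40867479-40868185) and at 472 kb after UV (chr18:40868935-40869228), and these did not overlap. The 51.3 Mb that lie more than 500 kb from any TSS held 0 intervals in both lists. Territory here is all sequence without unknown bases, and whether reads can be placed in it was not looked at. The 0 and the densities per Mb are to be read with this limit. Remote intervals within 1 Mb of a chromosome end numbered 5 without UV and 8 after UV. Within 1 Mb of an assembly gap of at least 50 kb there were 70 and 70. How much remote territory lies in these places is not given here, so these counts have no background.

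**Figure D1:**
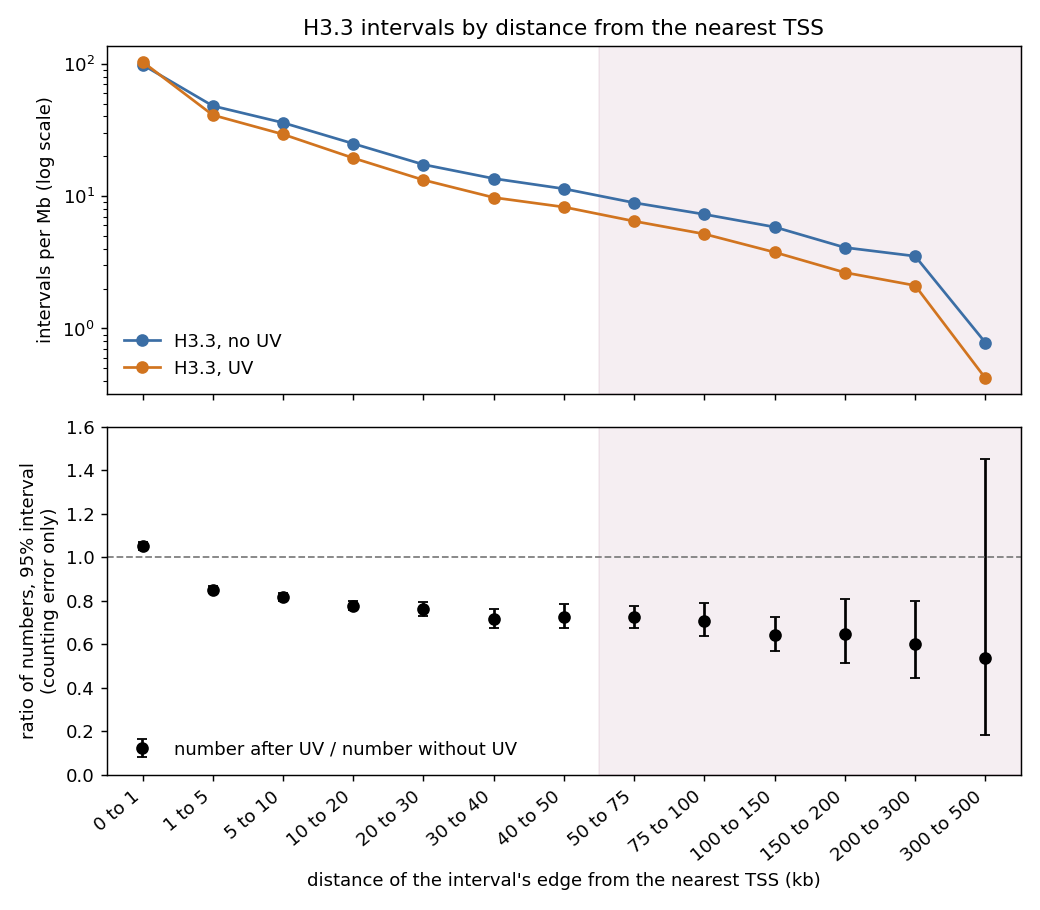
Top, H3.3 intervals per Mb (log axis) against the distance of the interval's edge from the nearest TSS in kb, for the list without UV and the UV list. Bottom, the ratio of the number after UV to that without UV in the same bins, with 95% intervals for counting error. The shaded bins are remote, with the density falling from 8.91 and 6.46 per Mb at 50 to 75 kb, and with all their ratios under 1, although the interval of the last bin reaches 1.45.

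The 50 kb boundary is arbitrary, and intervals on both sides of it were alike. In the list without UV, 659 intervals lay between 45 and 50 kb, with a median width of 437 bp, and 49.3% of them had a counterpart, against 566 intervals, 424 bp and 44.7% between 50 and 55 kb. In the UV list there were 490 intervals just outside the boundary and 397 just inside it, with counterparts for 67.8% and 66.0%.

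The change in number went along with base composition. Remote intervals had a median GC content of 44% without UV and 45.8% after UV. Of those with a GC content under 40%, 995 were listed without UV and 470 after UV, a ratio of 0.472 (95% interval 0.422 to 0.528). The ratio was 0.629 at 40 to 45% GC, 0.776 at 45 to 50%, 0.979 at 50 to 55% and 1.39 (95% interval 1.12 to 1.74) at 55% and over, where 140 intervals were listed without UV and 195 after UV. In the same GC ranges, intervals within 1 kb of a TSS had ratios of 0.462, 0.643, 0.761, 0.889 and 1.31, and those from 1 to 50 kb had 0.512, 0.642, 0.761, 0.865 and 1.34. At equal GC content the 95% intervals of the ratios of remote intervals overlapped those of both other classes in every range. The part of GC content in the lower number of remote intervals was not tested, and with 1 library per condition, UV and library cannot be told apart.

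**Figure D2:**
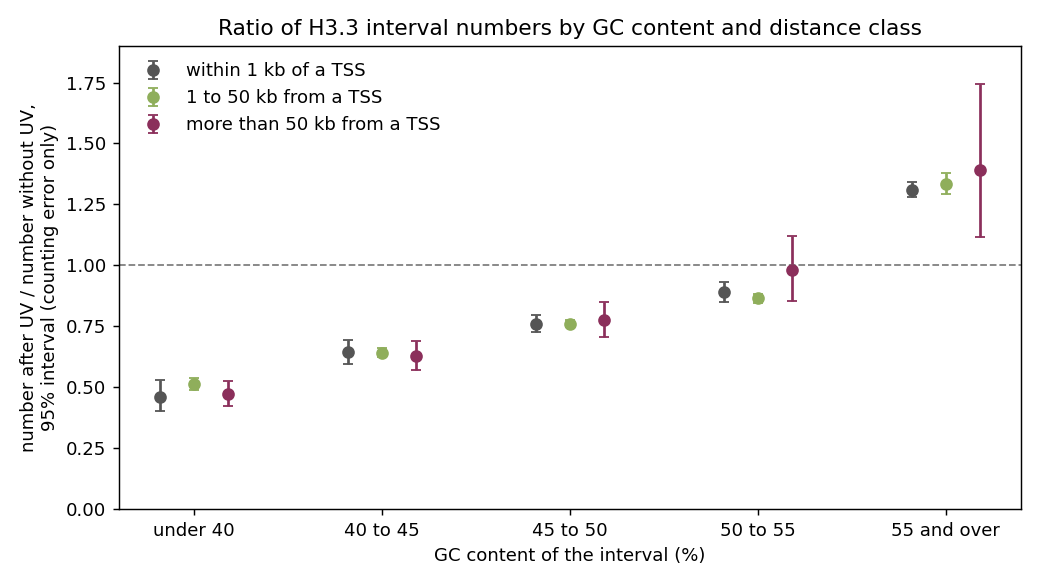
Ratio of the number of H3.3 intervals after UV to that without UV, with 95% intervals for counting error, against the GC content of the interval in %, for the distance classes in separate colours. The ratio of remote intervals climbs from 0.472 under 40% GC to 1.39 at 55% and over, and the points of the other classes lie close to it in each GC range.

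The fall was seen across the genome. The UV list held fewer remote intervals on every chromosome except 22, which had 10 without UV and 11 after UV. Chromosome 19 had the fewest, with 1 and 0. Density without UV ran from 0.248 per Mb on chromosome 19, 1.74 on X and 2.07 on chromosome 22 to 9.45 on chromosome 11 and 10.5 on chromosome 8. Remote intervals lay in genes more often than remote territory does. Of the intervals, 49.7% without UV (95% interval 48.1 to 51.3%) and 51.5% after UV (95% interval 49.5 to 53.4%) overlapped an annotated gene, against 35.8% of the tiles of 200 bp of remote territory. For protein-coding genes the shares were 37.2%, 39.3% and 23.3%. An interval is wider than a tile and overlaps a gene somewhat more easily. Nearly all intervals in genes were intronic, with 66 in exons without UV and 34 after UV.

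Remote intervals were of ordinary width, with few summits. Without UV the median width was 439 bp (95% interval 430 to 448), after UV it was 428 bp (95% interval 419 to 434), and the widest intervals measured 3426 and 3429 bp. The medians were 471 and 515 bp within 1 kb of a TSS and 425 and 429 bp from 1 to 50 kb. More than 1 summit was listed for 290 intervals without UV, 7.64% (95% interval 6.82 to 8.53%), and for 153 after UV, 5.77% (95% interval 4.92 to 6.73%). Of these, 48 and 25 had at least 3, and the most summits in an interval were 5 and 4. Within 1 kb of a TSS, 17.7% and 19.9% of intervals had several summits, and between 1 and 50 kb 10.5% and 9.36% had. The difference in median width depended on the threshold. It was −11 bp (95% interval −22.7 to 0.715) over all remote intervals, which includes 0, and −73.5 bp for those whose −log10 q was 5 or more. It was −48 bp between lists of equal length, for which only as many of the strongest intervals without UV were kept as the UV list has. The difference in the share with several summits, −1.87 percentage points, became −3.72 with lists of equal length.

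The widest remote intervals had counterparts in the other list. Without UV the widest was in an intron of the protein-coding gene ENSG00000285218, with *RPL22L1* as the nearest gene by TSS (chr3:170801729-170805154, 3426 bp, 4 summits), and its counterpart after UV measured 1292 bp with 2 summits. Next came one near *AASDHPPT* with 3093 bp and 5 summits, with 642 bp and 1 summit after UV, and one in an intron of *FIGN*, which encodes a microtubule-severing ATPase, with 2916 bp and 5 summits, with 2620 bp and 4 summits after UV. After UV the widest was in an intron of *VAV2*, which encodes an exchange factor for small GTPases (chr9:133872332-133875760, 3429 bp, 4 summits), and its counterpart without UV measured 2357 bp with 4 summits. The next, in an intron of *SPRY4-AS1* with *FGF1* as the nearest protein-coding gene, measured 2673 bp with 3 summits after UV and 1438 bp with 1 summit without UV.

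Where an interval was found in both lists, it was on the whole narrower after UV. There were 1508 pairs of remote intervals that overlapped each other and no further interval. In 922 of them the UV interval was the narrower, in 585 the wider and in 1 they were equal. Their widths had a median of 536.5 bp without UV and of 473 bp in the UV list, and the median log2 ratio of the widths was −0.16 (95% interval −0.19 to −0.13). Pairs of the other classes were not formed. Among all their intervals with a counterpart, the median width was 526 and 491 bp from 1 to 50 kb, and 537 and 624 bp at a TSS. In these remote pairs, the numbers of summits and the summits' places were compared as well. Fewer summits were listed after UV in 130 pairs and more in 45, and the number was the same in 1333. The strongest summits of a pair lay a median of 56 bp apart and within 100 bp in 70.2% of pairs.

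Most remote intervals of the list without UV had no counterpart in the UV list, whereas most of the UV list had one in the other. Of the 3795, 1732 overlapped an interval of the UV list by at least 1 bp, 45.6% (95% interval 44 to 47.2%), whereas 57.3% of all distinct intervals of that list did. In the other direction, 1745 of the 2650 remote UV intervals overlapped one of the list without UV, 65.8% (95% interval 64.0 to 67.7%), against 65.6% of all distinct UV intervals. Nearly the same number of intervals thus stands over different totals. With lists of equal length the shares were 51.9% and 60.4%. Without UV the remote share stood below that within 1 kb of a TSS, 74.1%, and that from 1 to 50 kb, 52.0%. After UV those shares were 67.8% and 64.6%.

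Persistence followed the strength of an interval. Of the remote intervals without UV with a −log10 q under 2, 67 of 337 had a counterpart, 19.9% (95% interval 15.8 to 24.5%). At 5 to 10 the share was 61.0%, at 10 to 20 89.7%, and at 20 and over 156 of 157 had one, 99.4% (95% interval 96.5 to 100%). In the UV list the shares were 42.4% under 2, 74.2% at 5 to 10, 93.0% at 10 to 20 and 98.7% at 20 and over. At equal strength, remote intervals without UV had a counterpart about as often as those from 1 to 50 kb when the −log10 q was 3 or more, with 36.5% and 39.0% at 3 to 5 and 61.0% and 61.5% at 5 to 10, and less often than those at a TSS, with 54.4% and 77.3%. In the UV list the order was turned: at 5 to 10, 74.2% of remote intervals (95% interval 70.8 to 77.4%) had a counterpart, against 69.2% from 1 to 50 kb and 57.8% (95% interval 56.6 to 59.0%) at a TSS.

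**Figure D3:**
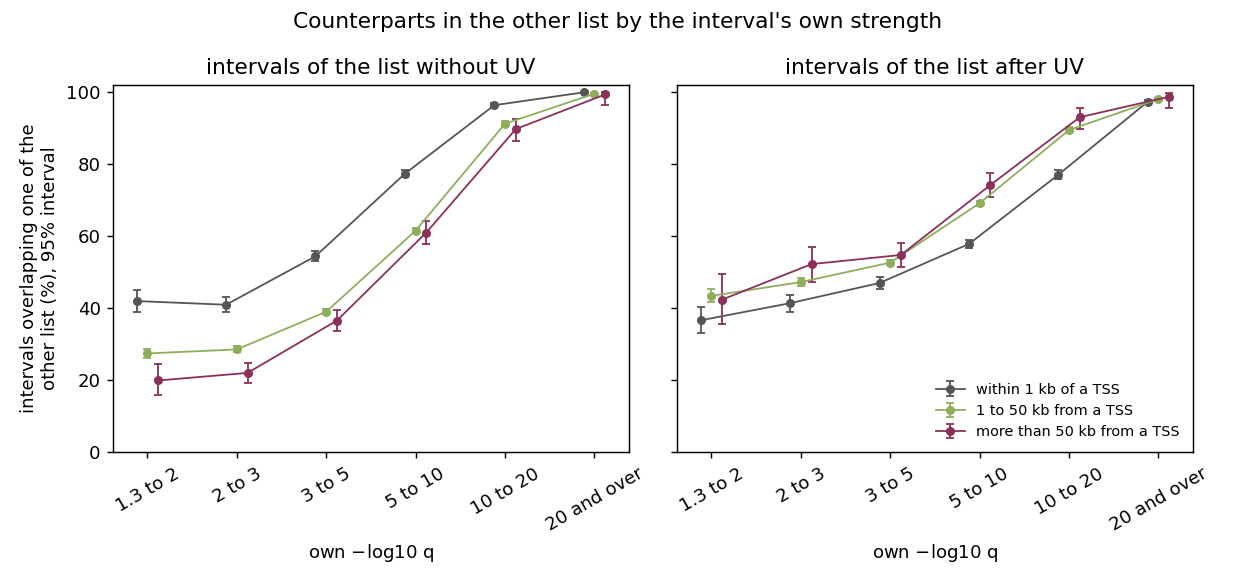
Percent of H3.3 intervals that overlap an interval of the other list by at least 1 bp, with exact 95% intervals, against the interval's own −log10 q, for the list without UV (left) and the UV list (right) and for the distance classes. Remote intervals climb from 19.9% to 99.4% on the left and from 42.4% to 98.7% on the right.

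Among the 2063 remote intervals without UV that had no counterpart, the median −log10 q was 3.27, against 6.54 for those with one, and the median width was 374 bp against 557 bp. Among the 905 UV intervals without a counterpart these were 3.46 against 5.81, and 360 bp against 481 bp. An interval of the other list lay within 1 kb, though not overlapping, for 498 of the 2063 and 303 of the 905. For 536 and 177 there was none within 50 kb. Intervals with several summits had a counterpart more often than those with 1, and they were also stronger and wider. Of those without UV with 2 summits 83.5% had a counterpart, and of those with 3 or more 91.7%, against 42.4% of those with 1 summit. After UV these shares were 92.2%, 96.0% and 64.2%. In the same order, the median −log10 q was 8.62, 11.0 and 3.73 without UV, and 8.84, 12.9 and 4.42 after UV. The median widths were 1072, 1788 and 419 bp without UV, and 1041.5, 1752 and 415 bp after UV. The parts of strength and width in these shares were not tested.

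The strongest remote intervals were found in both lists. The interval near *BMAL1* (chr11:13215527-13216825), 59.8 kb from a TSS, had a −log10 q of 78.3 and a fold enrichment of 20.2 without UV, and its counterpart after UV had 55.2 and 17.9. The interval near *LMX1A* (chr1:165117328-165117899), 92.7 kb from a TSS, had 71.6 without UV and 80.1 in the UV list, where it was the strongest. Near *SSR3*, which encodes a subunit of the translocon-associated protein complex, the values were 63.0 and 79.5 (chr3:156606034-156606451), and near *VAPA*, which encodes a membrane protein of the endoplasmic reticulum, 53.4 and 71.1 (chr18:10014406-10016480). In an intron of *PRKCA*, which encodes protein kinase C alpha, they were 44.2 and 53.3 (chr17:66548638-66551496). These values depend on each library and do not say that one was higher than the other. In rank within its list, the interval in an intron of *KAZN* was the most unequal of the leading ones, at 929 of 88806 distinct intervals without UV and 16627 of 77173 after UV, with a −log10 q of 50.1 and 12.6 (chr1:14485341-14486284).

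Strong intervals of 1 list only were rarer. Without UV the strongest lay in an intron of the non-coding *LINC01111*, nearest to *ZFHX4*, which encodes a zinc finger homeodomain protein (chr8:76471202-76471764, −log10 q 22.8), followed by that near *TXNL1* with 19.5 and by intervals in introns of *EXT1* with 18.9 and *UTRN* with 18.0. *EXT1* encodes a polymerase of heparan sulfate and *UTRN* utrophin. After UV the strongest was that in *TTLL11* (chr9:121896476-121896929, −log10 q 22.6). It was followed by one in an intron of *LINC00589*, nearest to *DUSP4*, which encodes a MAP kinase phosphatase, with 20.3. Next came one in an intron of *ZMIZ1*, a coactivator of transcription, with 19.7, and one near *PEX2*, a peroxisome biogenesis gene, with 17.9. The last was one in an intron of *ADK*, which encodes adenosine kinase, with 17.7. All of these had 1 summit and were 428 to 595 bp wide. The TSSs of *ZFHX4* and *DUSP4* lay 209 and 332 kb from their intervals. After UV, the summit windows in *LINC00589*, near *PEX2* and in *ADK* held 2, 2 and 4 of the 4 Alu words. Those in *TTLL11* and *ZMIZ1* held 0. Without UV, the windows in *LINC01111*, near *TXNL1*, in *EXT1* and in *UTRN* held 1, 3, 1 and 1.

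Summits of remote intervals fell on Alu sequence far more often than remote territory holds it. A window of 200 bp around the summit was called Alu-like when it held at least 2 of the 4 words on either strand. This was so for 993 of the 3795 remote intervals without UV, 26.2% (95% interval 24.8 to 27.6%), and for 886 of the 2650 after UV, 33.4% (95% interval 31.6 to 35.3%). Of the 3017454 tiles of 200 bp in remote territory, 2.28% were Alu-like. The excess was not particular to remote intervals. From 1 to 50 kb, 45% of windows without UV and 45.2% after UV were Alu-like, above the remote shares, against 5.62% of the tiles there, and at a TSS 25.9% and 20.4% were, against 4.94%. Alu elements are rich in G and C, so windows and tiles were also compared at like GC content. Among windows and tiles with 50 to 55% GC, 54.3% of the windows without UV and 58.1% of those after UV were Alu-like, against 18.5% of the tiles, and at 45 to 50% GC the shares were 25.4%, 30% and 7.25%. The ratio of windows to tiles was thus 11.5 and 14.7 over all and between 2.94 and 4.13 in these GC ranges. In these ranges the tiles themselves were more often Alu-like than over all. The smaller ratios therefore do not say what part GC content has in the excess, which was not tested. Tiles lie on a fixed grid and can cut an element, which lowers their share. A diverged copy lacks the letters, so the shares count well-preserved copies.

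The Alu-like share grew with strength in both lists. Without UV it was 11.4% (95% interval 9.64 to 13.3%) at a −log10 q under 3, 19.7% at 3 to 5, 33.4% at 5 to 10, 57.9% at 10 to 20 and 65.0% (95% interval 57.0 to 72.4%) at 20 and over, where 102 of 157 windows were Alu-like. After UV it ran from 13.6% to 59.5%. At a TSS the share was 12.6% without UV and 6.54% after UV among intervals of 20 and over, and between 1 and 50 kb it was 56.2% and 44.5%. Among the 50 strongest remote intervals of each list, 33 without UV and 24 after UV had Alu-like summits.

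**Figure D4:**
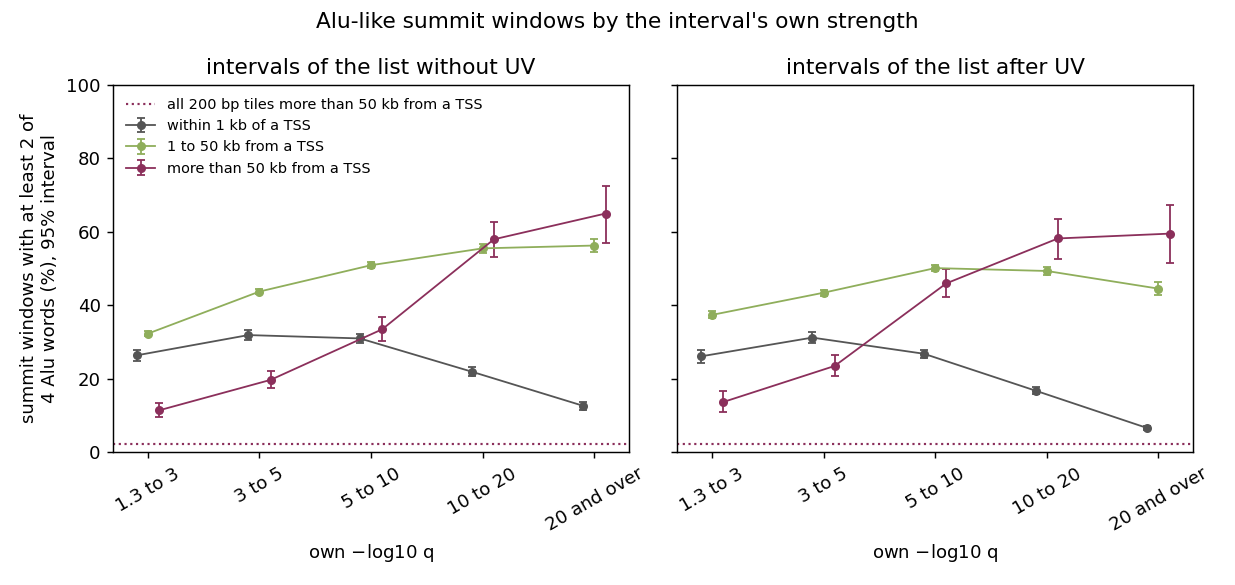
Percent of H3.3 summit windows of 200 bp with at least 2 of the 4 Alu words, with exact 95% intervals, against the interval's own −log10 q, for the list without UV (left) and the UV list (right) and for the distance classes. The dotted line marks the 2.28% of remote tiles that are Alu-like. Remote intervals climb from 11.4% to 65.0% on the left and from 13.6% to 59.5% on the right, while intervals at a TSS are lowest among the strongest.

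Alu-like and other remote intervals differed in how their number compared between the lists. For the Alu-like ones the ratio of the number after UV to that without UV was 0.892 (95% interval 0.814 to 0.978), and for the others, 2802 without UV and 1764 after UV, it was 0.630 (95% interval 0.593 to 0.668). The corresponding ratios between 1 and 50 kb were 0.817 and 0.811. Of the Alu-like remote intervals 65.7% without UV and 76.1% after UV had a counterpart, and of the others 38.5% and 60.7%. At a −log10 q of at least 10 these shares were 94.1%, 96.2%, 89.9% and 93.1%, and the ratios of numbers were 0.844 (95% interval 0.718 to 0.990) and 0.890 (95% interval 0.733 to 1.08). Alu-like intervals were stronger, with a median −log10 q of 6.70 and 6.83 against 3.73 and 3.91, and richer in GC, with a median of 46.9% and 47.2% against 42.7% and 44.4%. How reads that map to several copies were treated is not given in the sources used here, and the part of this in the Alu-like intervals was not tested.

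The other motifs searched differed from remote territory to unequal degrees. AP-1 is the dimer of FOS and JUN proteins that binds many fibroblast enhancers. Its letters TGACTCA were in 4.30% of remote windows without UV (95% interval 3.67 to 4.99%) and 4.19% after UV (95% interval 3.46 to 5.02%). They were in 2.68% of remote tiles, in 3.07% and 2.96% of windows from 1 to 50 kb and in 2.20% and 2.05% of those at a TSS. Outside Alu-like windows and tiles the shares were 4.93% and 5.05% of remote windows, 2.69% of remote tiles, and 4.19% and 3.95% of windows from 1 to 50 kb. The share fell with strength, from 6.16% (95% interval 4.89 to 7.65%) at a −log10 q under 3 to 1.41% (95% interval 0.612 to 2.77%) at 10 and over without UV, and from 5.70% to 1.84% after UV. In remote windows the AP-1 motif stood a median of 51 bp from the summit without UV and 55 bp after UV. Of the remote windows with it, 26.4% and 22.5% held it within 25 bp. From 1 to 50 kb the medians were 51 and 54 bp and the shares 24.5% and 22.8%. At a TSS they were 53 and 57 bp, and 24.0% and 22.4%. The 95% intervals of the remote shares overlapped those of both other classes. Whether the motif lay nearer to the summit than by random placement in the window was not tested, and no such nearness is read from these values. TEAD letters (GGAATG) were in 10.1% and 8.49% of remote windows against 12% of tiles, RUNX letters (TGTGGTT) in 3.61% and 3.09% against 3.78%, and C/EBP letters (TTGCNNCAA) in 1.63% and 1.4% against 2.35%. The GC box (GGGCGG) was in 4.19% and 7.02% of remote windows against 1.17% of tiles, and in 35.2% and 41.9% of windows at a TSS. All were searched on both strands, and the TEAD letters can overlap tandem GGAAT repeats. The core of the CTCF motif was in 23 remote windows without UV and 12 after UV, 0.606% and 0.453%, against 0.304% of tiles. It was in 0.397% and 0.581% of windows from 1 to 50 kb and in 1.21% and 1.38% of those at a TSS. A tandem TTAGGG was in 1 and 0 remote windows, 0.0264% and 0%, against 0.00378% of tiles. A tandem GGAAT was in 2 and 0, 0.0527% and 0%, against 0.214% of tiles. Windows of the intervals were richer in GC than tiles, with medians of 47.5% and 49.5% against 37.5%, and the part of GC content in these shares was not tested.

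Remote intervals lay in groups. Another remote interval of the same list was within 20 kb for 70.2% of them without UV (95% interval 68.7 to 71.7%) and for 62.8% after UV (95% interval 60.9 to 64.6%), and 1130 and 987 stood alone. The difference of −7.47 percentage points shrank to −2.34 (95% interval −4.84 to 0.162) with lists of equal length and to −3.48 (95% interval −7.32 to 0.366) at a −log10 q of at least 5, and both of these intervals include 0. Chained in this way, the intervals formed 818 groups without UV and 553 after UV, of which 122 and 61 held 5 or more intervals, and 12 and 4 held 10 or more. Intervals in groups of 5 or more had a counterpart in 54.8% of cases without UV and 75.3% after UV, whereas those alone had one in 38.5% and 58.9%. Their median −log10 q was 4.61 and 5.53 against 3.73 and 4.42.

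The largest group of both lists lay in *EXT1*. Without UV, 53 intervals with 60 summits stood within a stretch of 105 kb of the gene (chr8:117859740-117964961) and covered 32.7 kb, about 5.04 per 10 kb. After UV, 41 intervals with 47 summits covered 23.2 kb of the same stretch (chr8:117858337-117965005). Of these, 32 and 34 had a counterpart. Their −log10 q ran from 1.32 to 34.8 with a median of 6.36 without UV, and from 1.82 to 27.6 with a median of 7.26 after UV. Alu-like summits made up 25 of the 53 and 25 of the 41. The whole gene, 317 kb on the minus strand of chromosome 8, held 132 intervals without UV and 116 after UV at any distance from a TSS, of which 3 and 2 were at a TSS. Without the intervals in *EXT1*, 69.8% and 62.2% of the remaining remote intervals were in groups.

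**Figure D5:**
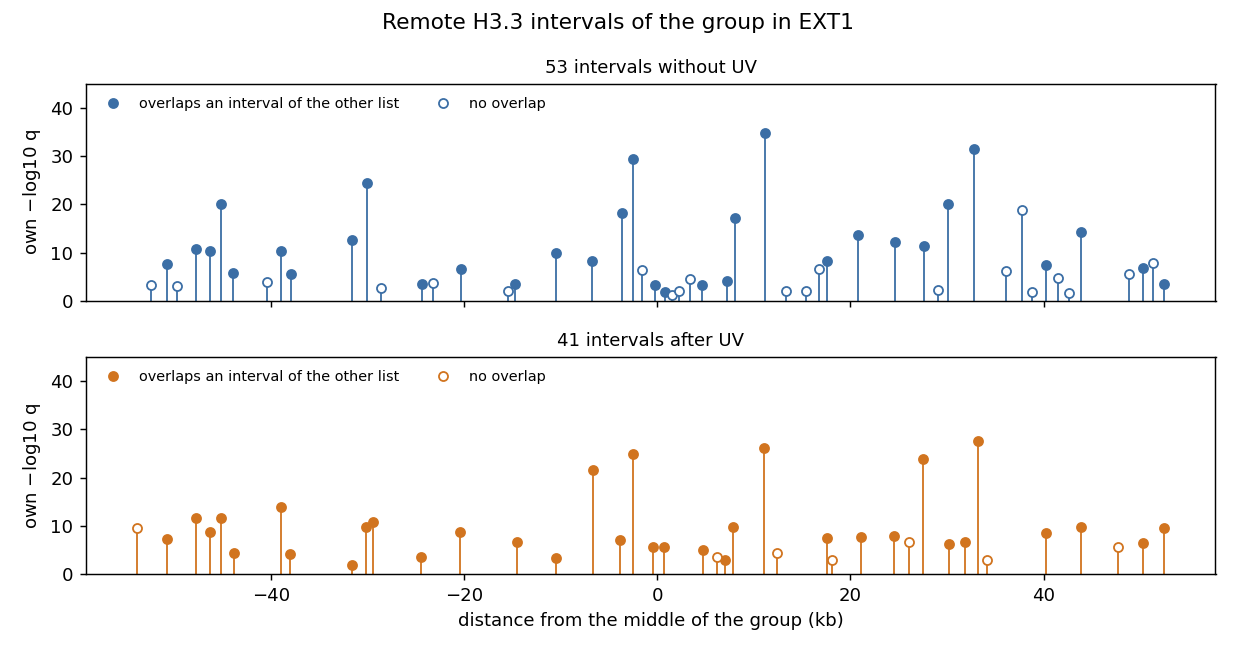
The remote H3.3 intervals of the group in *EXT1*, by their distance from the middle of the group in kb and their own −log10 q, without UV (top, 53 intervals) and after UV (bottom, 41). Filled points overlap an interval of the other list, which 32 and 34 do. Intervals are spread over the whole stretch in both lists.

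The next groups lay in other long genes. In *MAML2*, which encodes a coactivator of Notch signalling, 25 intervals formed a group of 102 kb without UV (chr11:96145581-96247719). The UV list held 18 intervals over that stretch, and the largest group it formed there held 9. In *PRKCA* the groups held 21 intervals over 60.8 kb without UV (chr17:66520132-66580899) and 17 over 64.4 kb after UV. In the non-coding gene ENSG00000287042, near *GALNT15*, which encodes an enzyme of mucin-type glycosylation, they held 16 and 15 over about 65.1 and 65.0 kb (chr3:16058865-16123997 without UV). Alu-like summits were 1 of 16 and 0 of 15 there, 10 of 22 and 8 of 19 in *PRKCA*, and 11 of 30 and 8 of 21 in *MAML2*. At *RUNX3* and *CLIC4*, 13 intervals, 8 of them in *CLIC4*, without UV formed a group of 25 kb, over which the UV list held 7. In *ZMIZ1* the group was larger after UV, with 15 intervals against 11 (chr10:79126621-79190513 after UV), 6 of each with a counterpart and 0 Alu-like. Its strongest summit had a −log10 q of 16.4 without UV and 35.4 after UV. In *GLI2*, a transcription factor gene of Hedgehog signalling, 9 intervals formed a group after UV, and the list without UV held 9 over that stretch as well.

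The nearest protein-coding gene of a remote interval, by TSS, was 1 of 1186 genes without UV and 1 of 1010 after UV, which are 5.94% and 5.06% of the 19962 protein-coding genes. Of these, 906 were shared, 76.4% of the first set and 89.7% of the second. Of the 1290 genes in either list, 729 had fewer remote intervals after UV, 239 had more and 322 had as many. The nearest gene was also the gene the interval lay in for 1224 of the intervals without UV and 909 after UV. Nearness says nothing of which gene an interval acts on, and the number per gene depends on how much remote territory the gene has.

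*EXT1* led in both lists with 69 intervals without UV and 50 after UV. *MAML2* followed with 29 and 21. *RUNX1*, a transcription factor gene, had 20 and 11, all of them in the gene itself. *IQCJ-SCHIP1*, a readthrough gene, had 18 and 9, and *TENM4*, which encodes a teneurin adhesion protein, had 18 and 12, with 0 in the gene. *PTPRG*, which encodes a receptor tyrosine phosphatase, had 17 and 11. There were 16 and 15 at *GALNT15*, 16 and 10 at *NRXN3*, a synaptic adhesion gene, and 16 and 12 at *PRKCA*. In the UV list *ZMIZ1* with 15, *ACTL7B* with 13 and *AFF3* with 12 were also among the leading genes, and they had 11, 11 and 15 without UV. *FAT3*, which encodes an atypical cadherin, had 10 and 11, and with 11 it was tied after UV with *PTPRG*, *ROBO2*, *RUNX1*, *RUNX2* and *SGCD* for the last 2 of the 10 places.

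The largest falls in number were at *EXT1*, *SEL1L*, *OTOL1* and *NTRK3*, followed by *IQCJ-SCHIP1* and *RUNX1* with equal falls. *SEL1L*, whose product works in the degradation of proteins from the endoplasmic reticulum, had 16 remote intervals without UV and 4 after UV over 1.02 Mb of remote territory. *OTOL1*, which encodes a collagen-like protein of the inner ear, had 14 and 4, and *NTRK3*, which encodes a neurotrophin receptor, had 13 and 3. For *NTRK3* the highest −log10 q was 7.55 without UV and 3.91 after UV, and for *OTOL1* it was 22.8 and 22.9. In the other direction, besides *ZMIZ1*, *KCTD8*, which encodes a subunit of GABA-B receptors, had 1 and 6 and *CELF4*, which encodes an RNA-binding protein, had 3 and 7. *GDF10*, which encodes a ligand of the TGF-beta superfamily, had 2 and 5, a rise that several other genes equalled. The strongest of the 6 at *KCTD8* had a −log10 q of 16.2.

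Transcription factor genes of mesenchyme were taken first. Of the 57 genes of this list, 29 were nearest to at least 1 remote interval without UV and 24 after UV, 50.9% and 42.1%, beside the 5.94% and 5.06% of all protein-coding genes. Only 3442 of the 19962 protein-coding genes have any remote territory, whereas 46 of these 57 do, which weighs on such counts. There were 17.2 intervals per Mb of their remote territory without UV and 11.7 after UV, against 6.29 and 4.39 over all. The ratio of numbers, 0.679, was close to that of all remote intervals. *RUNX1* had the most with 20 and 11. *RUNX2*, a master regulator of bone, had 14 and 11, with a highest −log10 q of 24.0 and 40.1, and *GLI2* had 10 and 9. *TEAD1*, the DNA-binding partner of YAP, had 9 and 7, *OSR1* 8 and 8, and *GLI3* 8 and 4. *MKX*, a tendon gene, had 6 and 4, *SOX11* 6 and 2, and *EBF1* 5 and 6. *TBX3*, *NR2F1* and *TWIST1*, a regulator of mesenchyme, had 5 each without UV and 3, 3 and 2 after UV. *SOX9* had 4 and 2, *ZFHX4* 4 and 1, *EBF3* and *NR2F2* 3 and 2 each, and *TBX18* 3 and 3. *NFIA* had 0 without UV and 3 after UV, of which the strongest reached a −log10 q of 5.73. Of the genes named here, *EBF1* and *NFIA* had more after UV, and *OSR1* and *TBX18* had as many.

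Genes of AP-1 and the early response, which cells switch on within minutes of stress, were nearest to remote intervals for 8 of 36 without UV and 9 after UV, 22.2% and 25% beside the 5.94% and 5.06% of all protein-coding genes, and 14 of the 36 have remote territory. Their density was 12.8 and 7.80 per Mb, from 28 and 17 intervals. *DUSP10*, a phosphatase of stress kinases, had 5 and 2, *KLF6* 5 and 3, *MYC* 4 and 3, and *FOSL2*, the FOS family member, 3 and 3. Matrix and contractile genes of fibroblasts had remote intervals nearest to 9 of 45 and 8, or 20% and 17.8%, with remote territory for 17, at 6.36 and 4.59 per Mb, close to all remote territory. Among them *TGFB2* had 5 and 2, *COL11A1* 3 and 2, and *PDGFRA* 2 and 3. Of 40 synaptic and neural adhesion genes, all of which have remote territory, 24 and 22 were nearest to a remote interval, 60% and 55%. Their density, 2.32 and 1.64 per Mb over 33.6 Mb, was the lowest of the lists. *CDH9* had 10 and 4, *LRP1B* 7 and 6, *GRIK2* 6 and 7, *CNTN5* 6 and 1, *CDH10* 5 and 2, *CDH18* 5 and 4, and *PCDH7* 5 and 5. The strongest remote interval nearest to *CDH18* had a −log10 q of 43.2 without UV and 29.1 after UV. *SLITRK5* had 4 and 3, *LSAMP* 4 and 2, *NLGN1* 3 and 1, *GRID1* 3 and 3, and *CNTNAP5* 2 and 3. The lists were chosen with earlier results of these data known, and nothing particular to a list is read from its values. The ratio of numbers after UV to that without UV was 0.607 for early response genes, 0.722 for matrix genes and 0.705 for synaptic genes, beside 0.698 over all.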

How the data were processed

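H3.3 ChIP-seq peaks of MRC5 fibroblasts without UV and after UV were taken from the deposited narrowPeak lists, 1 for each library. Per the submitters' processing notes and the methods, reads were demultiplexed with bcl2fastq 2.17, trimmed with Trimmomatic 3.36, aligned to hg38 with BWA 0.7.12, and peaks were called with MACS 1.4.2. The layout of the lists, with a q column and an interval repeated for each summit, is that of MACS2. The control library and the threshold for H3.3 are not given in the sources used here. The deposited −log10 p and −log10 q of each summit, and its fold enrichment relative to local background, were computed by the authors' caller. The score column, as deposited, is 10 times the −log10 q without decimals and was not used further. No summit had a −log10 q under 1.30. These values are relative to each library. They were used for ranking within a list, and the −log10 q also as a threshold applied to each list.

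Distinct intervals on chromosomes 1 to 22 and X were measured against all TSSs of GENCODE release 44 and called remote beyond 50 kb. A counterpart overlapped by at least 1 bp, groups chained intervals at most 20 kb apart, and shares and ratios carry exact Clopper-Pearson 95% intervals. Differences between the lists carry approximate ones. Territory was the hg38 sequence without unknown bases in tiles of 200 bp, and letters were searched in 200 bp around the strongest summit. Scripts ran in Python 3.11.15 with scipy 1.17.1, pandas 2.3.3, numpy 2.4.6 and, for plots, matplotlib 3.10.9, and the counting was tested on simulated data. Regions named were the 5 strongest of each list, the 5 strongest with a counterpart and without one, the 3 widest and the 5 largest groups. Genes named were the 10 nearest to the most intervals in each list, the 5 with the largest difference in each direction (ties taken by name), and members of the gene lists nearest to at least 3 intervals in either list. The members and lists were chosen with earlier results of these data known. The Alu words, the sequence near *LMX1A* and the omission of *EXT1* were chosen after seeing the data. The reference carries no repeat masking, so the share of annotated repeats was not computed. Some items chosen by these rules are not reported here.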

Additional observations from a re-analysis of the deposited data

How the results depend on the processing

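The value of no result changed sign under the alternatives run. However, the 95% interval of the difference in groups included 0 with lists of equal length and at a −log10 q of 5. The interval of the difference in the share with several summits included 0 beyond 100 kb. There the difference was −1.76 percentage points (95% interval −3.88 to 0.359). Of the 77 recomputed values, 34 stayed within the counting error of the value given. The UV minus no-UV difference in the share of remote intervals, −0.840 percentage points, became −2.01 beyond 25 kb, −0.308 beyond 100 kb, −2.04 with TSSs of protein-coding genes only, −0.561 at a −log10 q of at least 3, −0.640 at 5, −0.498 with lists of equal length and −1.57 without Alu-like intervals. The ratio of numbers, 0.698, became 0.638 beyond 100 kb, 0.741 with protein-coding TSSs, 0.788 and 0.814 at a −log10 q of 3 and 5, 0.873 with equal length and 0.630 without Alu-like intervals. The difference in median width, −11 bp, became −46 and −73.5 bp at a −log10 q of 3 and 5 and −48 bp with equal length. The difference in the share with several summits, −1.87 percentage points, became −3.21 at a −log10 q of 3 and −3.72 with equal length. The difference in the share in groups, −7.47 percentage points, became −13.5 beyond 100 kb, −4.85 and −3.48 at a −log10 q of 3 and 5, −2.34 with equal length and −10.6 without Alu-like intervals.

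The share with a counterpart, 45.6% without UV and 65.8% after UV, became 47.5% and 67.7% beyond 25 kb, 41.4% without UV beyond 100 kb, 50.04% and 68.4% with protein-coding TSSs, 49.2% and 63.0% at a −log10 q of 3, 53.0% without UV at 5, and 51.9% and 60.4% with equal length. It became 42.7% and 62.0% when an overlap of 50% of the shorter interval was asked for, 58.8% and 77.3% when a counterpart within 1 kb was enough, and 38.5% and 60.7% without Alu-like intervals. The difference of these shares, 20.2 percentage points, became 23.5 beyond 100 kb, 13.8 and 13.2 at a −log10 q of 3 and 5, and 8.50 with equal length. The cause of these shifts was not tested. Leaving out the surroundings of assembly gaps, chaining at 10 or 50 kb, and leaving out *EXT1* moved none of the values they were run for. No paired analysis was possible because each condition has 1 library, and for the same reason no replicate could be left out. Depth is unknown, and a lower number of remote intervals in 1 library cannot be told apart from a less sensitive library.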
